A study of Mus musculus with 6 samples.

Results

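ErbB ligands are small growth factors with an EGF domain that activate the ErbB receptors, which are EGFR, ERBB2, ERBB3 (HER3) and ERBB4. The genes described are EGF, TGFA, AREG, EREG, BTC, HBEGF, NRG1, NRG2, NRG3 and NRG4, found by their symbols in the deposited table. They are 10 of the 58735 genes listed there. RNA-Seq covered 22Rv1, a human prostate cancer line, in 2 groups of 3 libraries. Parental cells were kept with vehicle, and the resistant subline, 22Rv1 BL-B01D1_R, was selected in rising concentrations of BL-B01D1. BL-B01D1 is a bispecific antibody–drug conjugate against EGFR and HER3 that carries the topoisomerase I inhibitor Ed-04. The subline comes from 1 selection of 1 line, and nothing in the labels says that the libraries of a group were separate cultures, so the p-values measure only the spread between these libraries. Whether drug was in the medium when RNA was taken is not given in the sources used here. The labels give mouse as organism, but both the line and the gene identifiers are human.

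Most ErbB ligands are made as transmembrane precursors. Proteases of the ADAM family cleave them at the cell surface, and the freed EGF domain acts on the same cell or on its neighbors. EGF, TGFA and AREG bind EGFR. EREG, BTC and HBEGF bind EGFR and ERBB4. NRG1 and NRG2 bind ERBB3 and ERBB4, and NRG3 and NRG4 bind ERBB4. ERBB2 has no ligand of its own and acts as the partner of the other receptors, and ERBB3 signals mainly through such a partner. In the prostate, ErbB ligands come from epithelium and stroma, and cultured cells also meet growth factors of the serum, which RNA-Seq of the cells does not measure.

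Total counts on genes lay between 13821639 and 17251491 per library. All 10 markers of 22Rv1 identity passed the filter on low counts. At an edgeR FDR of less than 0.05, 6 of them were higher and 3 lower in the resistant subline, each by an absolute log2 fold change under 1. Of all tested genes, 35.5% passed that FDR. Of the 10 markers of fibroblasts, immune cells and endothelium, CD3E and CDH5 had 0 counts in all libraries, COL1A1 had 164 to 259, DCN had 11 to 29 and the others had at most 6.

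ErbB ligand mRNA was scarce in both lines, and NRG3, a ligand of ERBB4, was the only ligand to pass the FDR threshold, just under the fold-change threshold for a call. NRG3 was higher in the resistant subline, by 1.96 times (95% interval 1.47 to 2.62). AREG had fewer counts there, but its libraries overlapped between the groups. The ERBB3 ligands NRG1 and NRG2 had at most 4 counts in any library. EGF, TGFA, BTC, HBEGF and NRG4 showed no difference that passed the test. All 10 ligands together held 177 to 261 counts per library in parental cells and 221 to 254 in resistant cells, which is 12.8 to 16.0 in 1000000 counts.

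**Figure D1:**
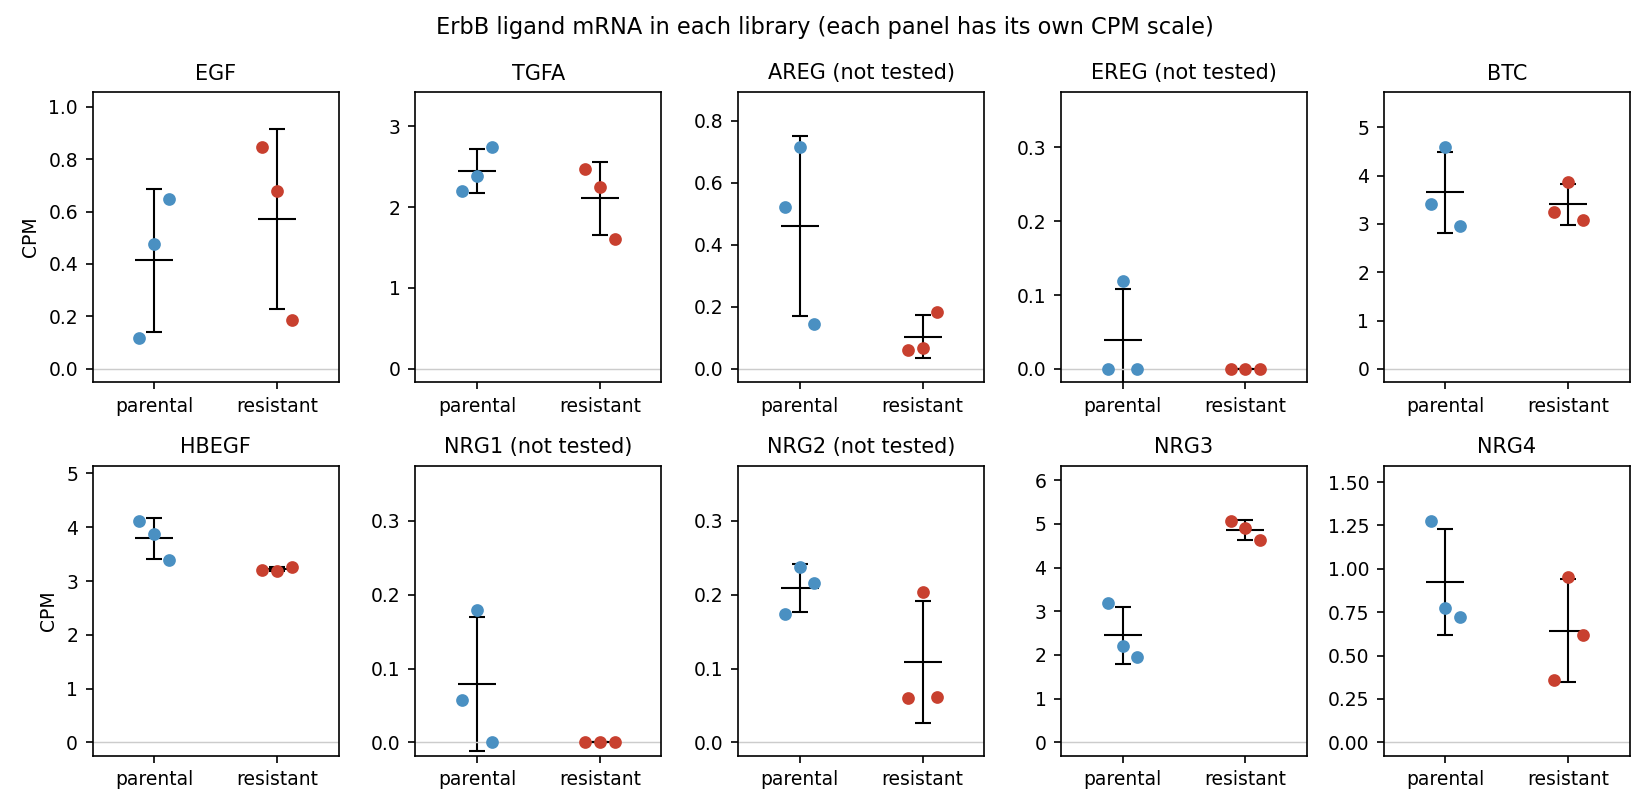
CPM (counts per 1000000, with library sizes corrected by TMM) of the 10 ErbB ligands in each library. Each panel has its own vertical scale, points are libraries (3 parental in blue, 3 resistant in red), and black bars give the mean and SD. For NRG3, all resistant libraries (4.62 to 5.07 CPM) lie above all parental ones (1.95 to 3.19 CPM). EREG and NRG1 are at 0 in all resistant libraries.

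edgeR's filter on low counts kept 6 of the 10 ligands for the test (EGF, TGFA, BTC, HBEGF, NRG3 and NRG4). AREG, EREG, NRG1 and NRG2 were too low. A gene was called when the FDR (from the quasi-likelihood test of edgeR, with Benjamini-Hochberg adjustment over all 17142 tested genes) was less than 0.05 and the absolute log2 fold change greater than 1, the thresholds of the study's methods. No ligand was called, 0 higher and 0 lower. Of all tested genes, 2.53% were called higher and 2.84% lower, and with 6 ligands, 0 called is no departure from these shares. Limma-voom and DESeq2 also called 0. Without the fold-change threshold, NRG3 was the 1 ligand of 6 with an FDR of less than 0.05, and it was also the only one at an unadjusted p under 0.05. The share over all tested genes was 35.5%. The groups did not overlap in 2 of the 6 (NRG3 and HBEGF), against 44.8% of all tested genes. For the 6 tested ligands the median log2 fold change was −0.16, against 0.0038 for all tested genes.

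Among the ligands that act on EGFR alone, TGFA (chromosome 2 of hg38, 70447280 to 70554193, reverse strand) was the best expressed. In the order of libraries 1, 2 and 3 (an order kept from here on), it had 38, 40 and 38 counts in the parental and 41, 33 and 26 in the resistant libraries. The groups overlapped. The log2 fold change was −0.21 (SE 0.25, edgeR FDR 0.572), with a 95% interval from −0.71 to 0.30, so a difference of the size of NRG3's in either direction lay outside it.

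EGF, the founding member of the family (chromosome 4, 109912884 to 110012266, forward strand), had 2, 8 and 9 counts in the parental and 14, 10 and 3 in the resistant libraries. Each group held 1 library with no more than 3 counts, and the groups overlapped. The log2 fold change of 0.50 had an SE of 0.56 and a 95% interval from −0.63 to 1.63 (edgeR FDR 0.534). A difference was not detectable at this depth, and the interval spans both directions. The value was 0.031 without parental library 1, 0.080 without resistant library 1, 0.93 without parental library 3 and 0.92 without resistant library 3.

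AREG (amphiregulin; chromosome 4, 74445134 to 74455009, forward strand) had 9, 12 and 2 counts in the parental and 1, 1 and 3 in the resistant libraries. Parental libraries 1 and 2 stood above all others, while parental library 3 lay within the resistant range. Over the groups this was 23 counts against 5, a ratio of 4.56 with an exact 95% interval from 1.70 to 15.4 that covers counting error only. An exact permutation test over the libraries (two-sided, on CPM) gave p = 0.2, where 3 against 3 cannot go under 0.1. Fitted without a filter on low counts, AREG had an edgeR p of 0.00951 and an FDR of 0.0553, so it did not pass. The difference in sums rested on parental libraries 1 and 2.

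Of the ligands shared by EGFR and ERBB4, BTC (betacellulin; chromosome 4, 74744759 to 74794686, reverse strand) had 59, 77 and 41 counts in the parental and 54, 57 and 50 in the resistant libraries. The resistant libraries lay inside the parental range. The log2 fold change was −0.12 (SE 0.21, edgeR FDR 0.713; 95% interval −0.53 to 0.30), and without parental library 2, the highest, it turned to 0.083 (FDR 0.828).

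HBEGF (heparin-binding EGF-like growth factor; chromosome 5, 140332843 to 140346631, reverse strand) had 71, 65 and 47 counts in the parental and 53, 47 and 53 in the resistant libraries. On the CPM scale these were 4.12, 3.87 and 3.39 against 3.197, 3.195 and 3.27, so every resistant library lay under every parental one. The gap between the groups was small beside the spread of the parental libraries, and the test was not passed. The log2 fold change was −0.24 (SE 0.20, edgeR FDR 0.370; 95% interval −0.64 to 0.16), and the exact permutation test gave p = 0.1, the smallest that 3 against 3 allow.

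EREG (epiregulin; chromosome 4, 74365143 to 74388751, forward strand) had 0, 2 and 0 counts in parental libraries and 0 in each resistant library. A count of 0 allows up to 3 counts, or 0.174 to 0.216 CPM at these depths, counting error only. No difference could be seen, and no fold is given.

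**Figure D2:**
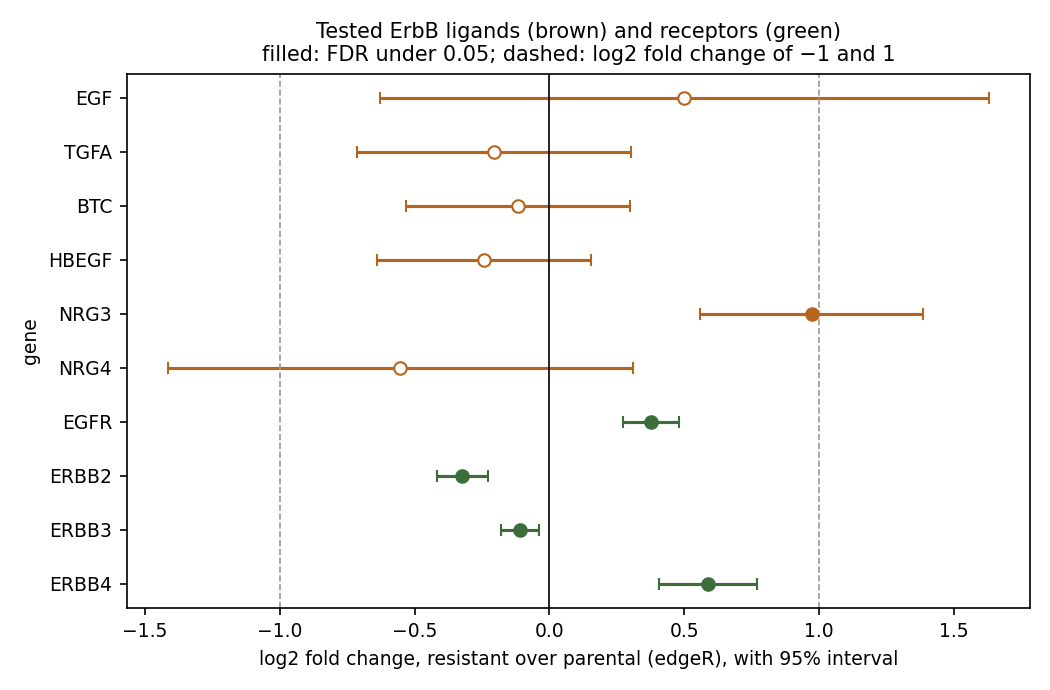
Log2 fold change of resistant over parental cells for the 6 tested ErbB ligands (brown) and the 4 receptors (green). Points are edgeR estimates and bars 95% intervals; filled points have an FDR of less than 0.05. NRG3 is the only filled ligand, at 0.97, and the intervals of the receptors are narrower than those of the ligands.

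NRG3 (neuregulin 3; chromosome 10, 81875314 to 82987179, forward strand) had 55, 37 and 27 counts in the parental and 84, 72 and 75 in the resistant libraries. In CPM these were 3.19, 2.20 and 1.95 against 5.07, 4.89 and 4.62. All resistant libraries exceeded all parental ones, and the parental libraries were more spread. The mean rose from 2.45 ± 0.66 CPM (SD, n = 3) to 4.86 ± 0.22 CPM (SD, n = 3). The log2 fold change was 0.97 (SE 0.20, edgeR FDR 1.77e-04), with a 95% interval from 0.56 to 1.39. The exact permutation test gave p = 0.1, the same as for HBEGF and the smallest possible here. More cells with NRG3 mRNA and more mRNA per cell cannot be told apart in bulk RNA.

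The value for NRG3 lay just under the fold-change threshold. Without parental library 1, the highest of its group, the log2 fold change was 1.22 and NRG3 was called, and the same held without resistant library 3 (1.01). Over all fits that left out 1 library it ranged from 0.85 to 1.22, with an FDR of 0.00247 at most. Ordered by log2 fold change, NRG3 stood at 477 of the 17142 tested genes.

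NRG4 (neuregulin 4; chromosome 15, 75935969 to 76059795, reverse strand) had 22, 13 and 10 counts in the parental and 6, 14 and 10 in the resistant libraries. The groups overlapped. The log2 fold change was −0.55 (SE 0.43, edgeR FDR 0.340), with a 95% interval from −1.42 to 0.31. It was −0.24 without parental library 1, −0.26 without resistant library 1 and −0.92 without resistant library 2. NRG4 shares 6.54 kb with FBXO22, a gene on the forward strand with 756 to 1097 counts per library that was higher in resistant cells (log2 fold change 0.21, edgeR FDR 0.00187). The sources used here do not say whether counting used strand, so reads of the shared stretch cannot be assigned with certainty.

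NRG1 (neuregulin 1, on the forward strand of chromosome 8) had 1, 3 and 0 counts in parental libraries and 0 in each resistant library. NRG2 (neuregulin 2; chromosome 5, 139846779 to 140043299, reverse strand) had 3, 4 and 3 counts in the parental and 1, 3 and 1 in the resistant libraries. The ERBB3 ligands among the 10 members were thus at or near the floor of 3 counts. ERBB3 itself had the highest FPKM (fragments per kilobase of gene and per 1000000 counts) of the 4 receptors. The NRG2 counts summed to 10 and 5, a parental to resistant ratio of 1.98 with an exact 95% interval from 0.62 to 7.40 (counting error only), which spans no difference. Fitted without a filter, the edgeR FDR was 0.617 for NRG2, 0.315 for NRG1 and 0.515 for EREG.

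Other genes overlapped 6 of the ligand genes on either strand, 14 in all. Apart from FBXO22, none of the other 13 exceeded 4 counts in any library. The 4 genes that overlapped NRG3 had at most 4 counts in a library, against at least 27 for NRG3.

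To compare levels between genes, counts were divided by gene length (FPKM). In parental cells, BTC (1.298 ± 0.298 FPKM, SD, n = 3) and HBEGF (1.26 ± 0.124 FPKM) led and their libraries overlapped. TGFA (0.492 ± 0.055 FPKM), NRG3 (0.482 ± 0.130 FPKM), AREG (0.279 ± 0.176 FPKM) and NRG4 (0.184 ± 0.061 FPKM) followed, and each of the first 3 overlapped the next. EGF (0.068 ± 0.044 FPKM) and NRG2 (0.046 ± 0.0072 FPKM) were lower and overlapped each other, and NRG1 and EREG were near 0.

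In resistant cells, the leading ligands were BTC (1.21 ± 0.148 FPKM, SD, n = 3), HBEGF (1.07 ± 0.013 FPKM), NRG3 (0.958 ± 0.044 FPKM) and TGFA (0.424 ± 0.091 FPKM), and none of these overlapped its neighbor in the order. NRG3 thus stood before TGFA there. BTC and HBEGF nearly met, at 1.094 FPKM in the lowest library for BTC and 1.082 in the highest for HBEGF. At 47 to 57 counts per library, so small a gap leaves their order open. NRG3 held 11.7% ± 2.67 of the summed ligand FPKM in parental libraries and 24.2% ± 1.26 in resistant libraries (SD, n = 3 each). The share of BTC was 31.3% ± 3.76 and 30.4% ± 1.80. That of AREG, which was not tested, was 6.45% ± 3.57 and 1.65% ± 1.21, and its groups overlapped. BTC, the ligand with the highest FPKM, stood above 37.2% of the protein-coding genes with a count in any library in parental cells.

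Summed over the 4 neuregulins, FPKM was 0.926, 0.657 and 0.575 in the parental and 1.08, 1.20 and 1.05 in the resistant libraries. The groups did not overlap, and NRG1 and NRG2 together contributed at most 0.0685 FPKM in a library. Of the 4, NRG3 alone had a higher mean in the resistant cells (0.482 FPKM in parental and 0.958 in resistant cells). The means of NRG4 (0.184 and 0.128), NRG2 (0.046 and 0.024) and NRG1 (0.0070 and 0) were lower there. Summed over the 6 ligands of EGFR, FPKM was 3.36, 3.92 and 2.92 against 2.89, 3.04 and 2.64. There the resistant libraries were lower on average (2.86 ± 0.201, SD, n = 3, against 3.40 ± 0.505), but the groups overlapped.

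**Figure D3:**
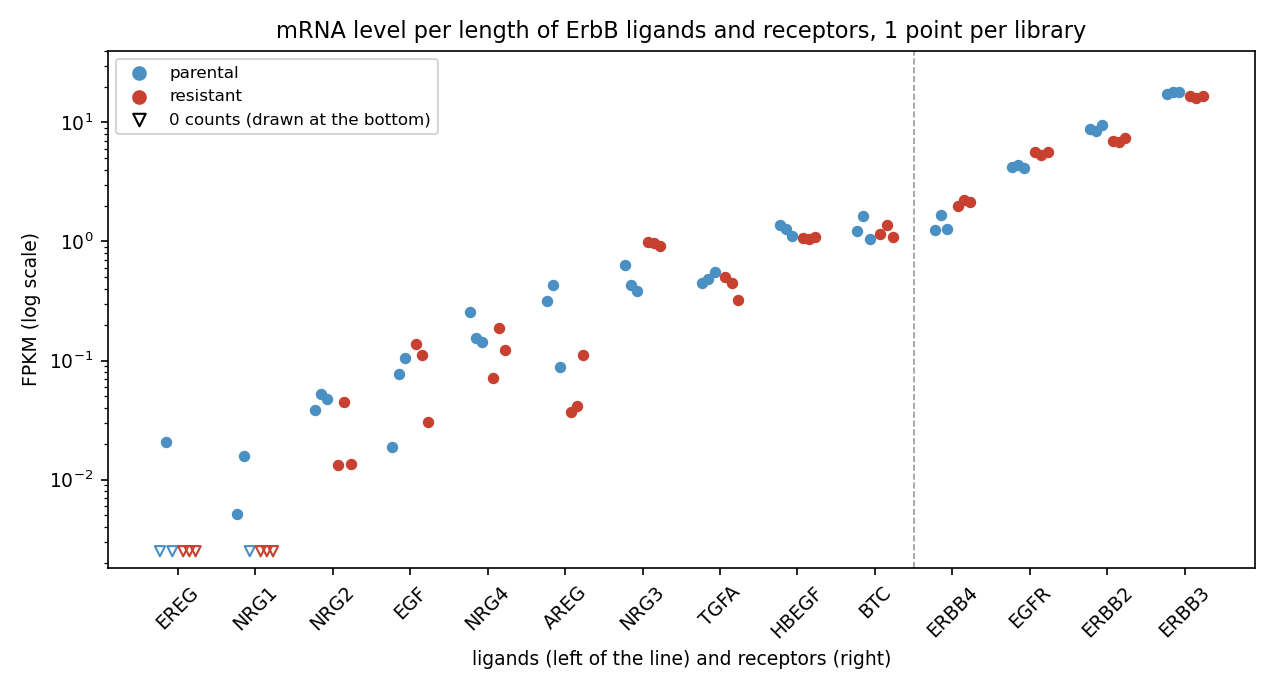
FPKM on a log scale for the 10 ligands and the 4 receptors, with 1 point per library (parental in blue, resistant in red) and libraries with 0 counts as open triangles at the bottom. No ligand exceeds 1.63 FPKM in any library, whereas ERBB3 lies between 16.2 and 18.1 FPKM.

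The receptors were far better measured than their ligands. ERBB3 was the highest, at 17.8 ± 0.464 FPKM (SD, n = 3) in parental and 16.5 ± 0.260 FPKM in resistant cells. Summed over the 4 receptors, FPKM was 7.12 to 9.47 times the sum over the 10 ligands in parental libraries and 7.24 to 8.63 times in resistant libraries, and these ranges overlapped. None of the 4 receptors was called, but all passed the FDR threshold, as they did at an unadjusted p under 0.05. Of all tested genes, 35.5% passed it, and 2.53% were called higher and 2.84% lower. Limma-voom and DESeq2 called 0 as well.

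ERBB4, the receptor of NRG3, had 280, 365 and 232 counts in the parental and 429, 426 and 449 in the resistant libraries. The groups did not overlap, and the log2 fold change was 0.59 (SE 0.089, edgeR FDR 9.07e-07). EGFR was higher too, with a log2 fold change of 0.38 (SE 0.052). ERBB2 (−0.32, SE 0.047) and ERBB3 (−0.11, SE 0.035) were lower. The FDR of these 3 ranged from 9.96e-08 for EGFR to 0.0143 for ERBB3.

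Other genes with an EGF domain of this kind were looked at beside the ligands. EPGN (epigen), a further EGFR ligand, had 3 counts in each parental library and 2, 2 and 1 in resistant libraries, and was not tested. TMEFF2, a transmembrane protein with an EGF-like domain, stood apart, at 5.87 ± 0.478 FPKM (SD, n = 3) in parental and 55.0 ± 1.51 FPKM in resistant cells. CSPG5 (neuroglycan C), a transmembrane proteoglycan with an EGF-like domain, had 4.63 ± 0.081 FPKM in parental and 4.02 ± 0.509 FPKM in resistant cells. Its level was thus above that of each of the 10 ligands, and its log2 fold change was −0.20 (edgeR FDR 0.0796). TMEFF1 had at most 11 counts in a library and TDGF1 had 0 in all.

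Genes that mature, carry, hold or cleave ErbB ligands formed a list of 36, of which 32 were tested. Of these, 13 had an FDR of less than 0.05, 3 higher and 10 lower in the resistant subline, and their overall median log2 fold change (32 genes) was 0.017. That share of 40.6% stands beside 35.5% of all tested genes. The 2 genes called were both lower. NKD2, which brings TGFA-bearing vesicles to the cell surface, had 141, 144 and 114 counts in the parental and 41, 49 and 66 in the resistant libraries (log2 fold change −1.34, SE 0.17, edgeR FDR 2.02e-08). CD44, a surface protein that can hold HBEGF, had 958, 903 and 732 counts in the parental and 430, 354 and 418 in the resistant libraries (log2 fold change −1.10, SE 0.064, edgeR FDR 5.73e-18).

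Of the 8 tested sheddases, the proteases that free the ligands, 1 was higher and 3 were lower at an FDR of less than 0.05 (35.5% of all tested genes), and none was called. ADAM17, the main sheddase of TGFA, AREG, HBEGF and EREG, did not pass, with a log2 fold change of −0.081 (edgeR FDR 0.339) and a 95% interval from −0.208 to 0.045. ADAM10, which cleaves EGF and BTC, was lower, at −0.12 (FDR 0.0160). ADAM15, the member of the list with the highest FPKM, was higher, at 0.15 (FDR 1.31e-04). BACE2, a further surface protease, stood close to the threshold at −0.97 (FDR 3.52e-10) and was called without parental library 3 (−1.01) and without resistant library 3 (−1.09). The iRhoms RHBDF1 and RHBDF2, which carry ADAM17 to the surface, did not pass (FDR 0.0692 and 0.696). FURIN, a proprotein convertase, was higher, at 0.52 (FDR 1.56e-11).

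Genes that ERK signaling downstream of ErbB receptors induces, or that feed back on it, formed a list of 22, of which 21 were tested. Of these, 9 had an FDR of less than 0.05 (42.9%), 1 higher and 8 lower, beside 35.5% of all tested genes. The 21 had a median log2 fold change of −0.23, and all tested genes 0.0038. ETV4, an ETS factor, was called lower, with 535, 488 and 451 counts in the parental and 228, 206 and 245 in the resistant libraries (log2 fold change −1.11, SE 0.082, edgeR FDR 1.12e-14). DUSP5, a phosphatase of ERK, was called lower on few counts (43, 16 and 16 against 13, 12 and 6; log2 fold change −1.24, SE 0.40, edgeR FDR 0.0132), and the call was lost without parental library 1 (−0.67, FDR 0.302), without resistant library 3 (−0.95, FDR 0.0959) and with DESeq2 (FDR 0.0520). ETV5, a close relative of ETV4, had −0.96 (FDR 6.64e-11) and was called without parental library 1 (−1.04). SPRY4, an inhibitor of receptor tyrosine kinase signaling, was called higher, with 110, 92 and 96 counts in the parental and 285, 278 and 300 in the resistant libraries (log2 fold change 1.54, SE 0.115, edgeR FDR 1.14e-14). SPRY4 was thus the only gene higher among the 9 with an FDR of less than 0.05, and the other 8 were lower. CCND1, the cyclin D1 gene, with the highest FPKM of the list, did not pass (log2 fold change 0.026, FDR 0.339), and neither did DUSP6, another ERK phosphatase (−0.16, FDR 0.453).

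**Figure D4:**
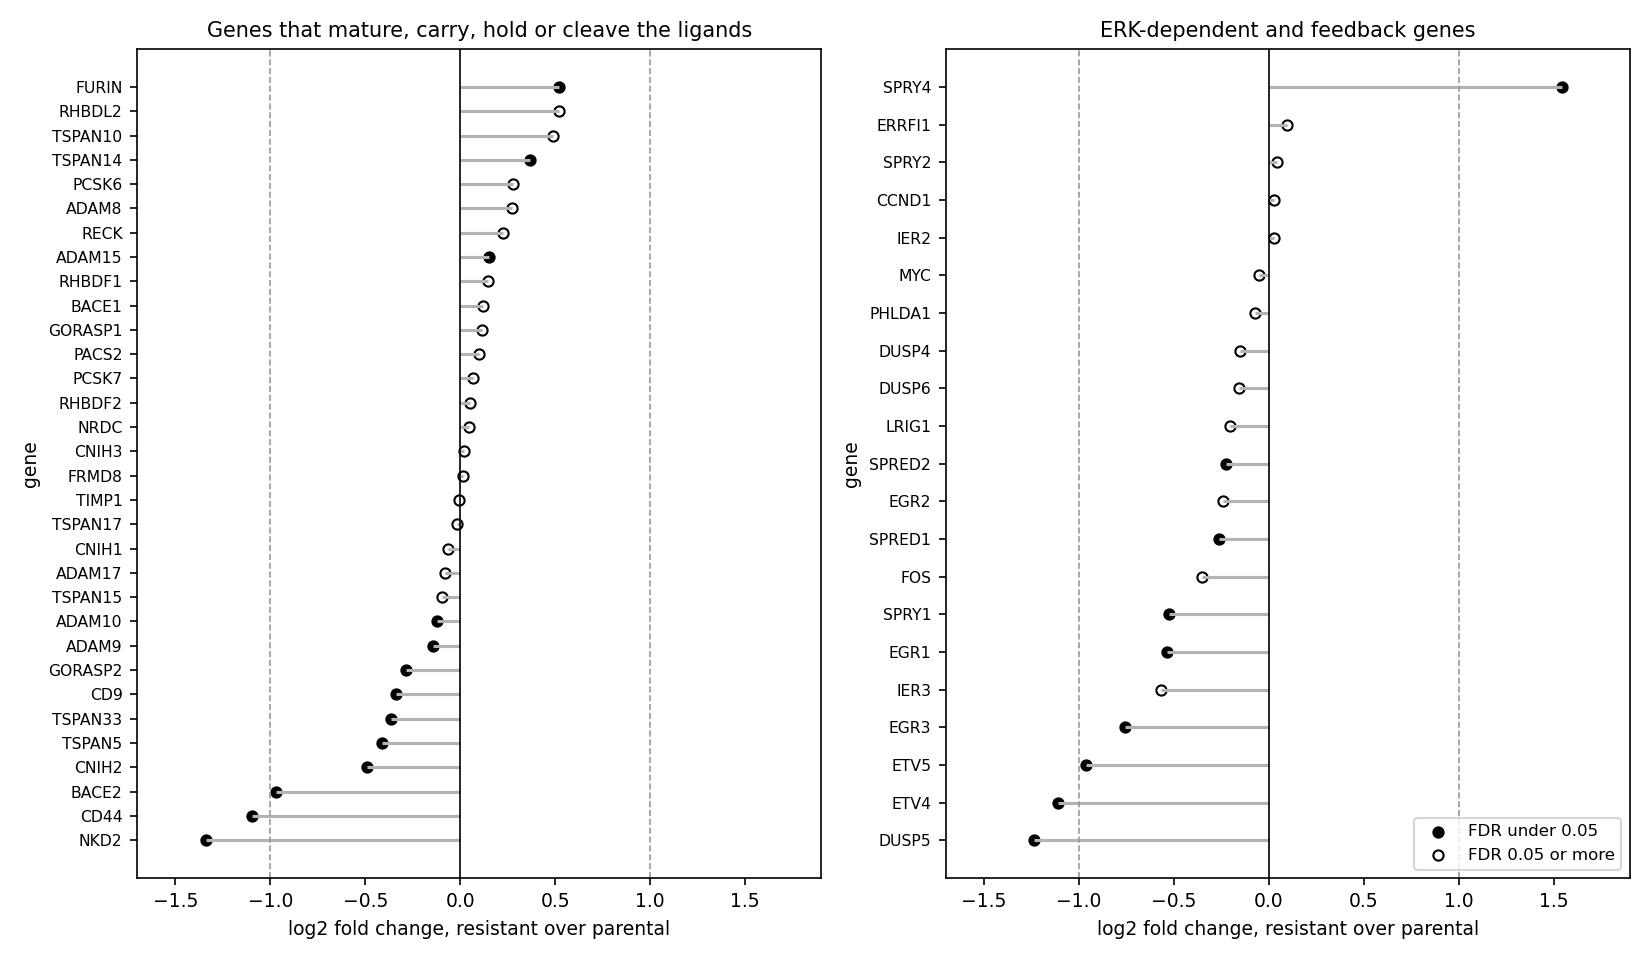
Log2 fold change of resistant over parental cells for the 32 tested genes around ligand processing (left) and the 21 tested ERK-dependent and feedback genes (right). Filled points have an FDR of less than 0.05, and dashed lines mark −1 and 1. NKD2 and CD44 lie beyond −1 on the left, and on the right DUSP5 and ETV4 lie beyond −1 and SPRY4 beyond 1.

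EREG, AREG and BTC lie in that order within 430 kb of chromosome 4, and EGF lies 35.1 Mb further on. The window of 1 Mb on either side of the 3 neighbors held 50 genes, of which 27 had 0 counts in all libraries and 10, BTC among them, were tested. Around the ligands the nearest tested genes were MTHFD2L and PARM1, with log2 fold changes of −0.14 and −0.17 (edgeR FDR 0.165 and 0.0635). Called genes stood at the far end, on the side of EREG. ALB (log2 fold change −1.77, edgeR FDR 6.78e-35), AFP (−2.34, FDR 3.60e-05) and RASSF6 (−1.66, FDR 0.00170) were called lower, and these 3 were the only genes called of the 10 tested in the window. Over all tested genes, 2.84% were called lower. Of the 10 tested in the window, 4 had an FDR of less than 0.05, all of them lower, beside 35.5% of all tested genes. Besides the 3 called, this was USO1 (log2 fold change −0.18, edgeR FDR 6.53e-05), at the other end, on the side of BTC. RASSF6 was not called without parental library 3 (−1.24, FDR 0.0506).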

How the data were processed

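RNA-Seq counts of 22Rv1 cells were analysed for 6 libraries, 3 parental and 3 resistant. Groups came from the sample titles, and columns were matched to samples by group name and number. According to the methods and the labels, the authors trimmed reads with fastp, mapped them to hg38 with HISAT2 (version 2.0.5), counted them per gene with featureCounts (1.5.0-p3) and deposited raw counts in 1 table, with coordinates and a gene length in bases, another quantity, which served for FPKM. The annotation release and the strand setting are not given in the sources used here.

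Counts were filtered with filterByExpr, scaled with TMM and fitted by edgeR (4.0.16, in R 4.3.3) with its quasi-likelihood test across 17142 genes. SE is the log2 fold change divided by the square root of F, and intervals are 95%. The fit was repeated 6 times with 1 library removed, and 9 other settings were tried, limma-voom (limma 3.58.1) and DESeq2 (1.42.0) among them. Scripts were tested on simulated data. A count of 3 in a library corresponds to 0.174 to 0.216 CPM. The members, gene lists and tests were chosen with earlier results of these data known. Named genes are the 10 ligands, the 4 receptors, other genes with an EGF domain, in the other lists every gene called (filled up to 3 by lowest p) and the gene of highest FPKM, genes overlapping a ligand, and called genes within 1 Mb of the chromosome 4 ligands. BACE2, ETV5, ADAM10, ADAM17, RHBDF1, RHBDF2, MTHFD2L, PARM1, USO1 and DUSP6 were named after their values were seen. The main fit did not pair libraries by replicate number, and the sample titles do not say whether they were paired. Sequences are not shown, since the reference used here was mouse.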

Additional observations from a re-analysis of the deposited data

How the results depend on the processing

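Of 84 counts of called or significant genes recomputed under the alternatives, 79 stayed within 1.5 times the reported count. With glmTreat, which tests against an absolute log2 fold change of 1, 0 ligands had an FDR of less than 0.05 (NRG3 had an FDR of 1), 0 ligand-processing genes were called in place of 2, and 1 ERK-dependent or feedback gene in place of 3. Leaving out 1 library moved the number of ligands called higher between 0 and 1, with 1 (NRG3) without parental library 1 and without resistant library 3. Of 108 values of single ligands, 106 kept their direction and side of the FDR threshold, or stayed within 1 SD. The fold-change threshold was not part of this count, and NRG3 crossed it in the fits just named. With 1 library left out, the log2 fold change of BTC ranged from −0.24 to 0.083, and the sign turned without parental library 2. With all libraries, that of NRG3 ranged from 0.89 with a prior count of 5 to 0.99 with the replicate block, where the 6 libraries were blocked by replicate number (FDR 3.55e-04). The replicate block changed no count of ligands, receptors or list genes called. Deviations of same-numbered libraries correlated at −0.025 to −0.0070, and 0 of 6 libraries correlated best with their own number. EGF and NRG4 were dropped when at least 10 counts were required in every library. AREG, EREG, NRG1 and NRG2 had too few counts for the filtered test. The causes of these changes were not tested.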
